A study of Mus musculus with 5 samples.

Results

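These regions carried H3K4me3 in control and in Olig2cKO mouse gliomas, but H3K27ac was listed there in control tumours alone, and no Olig2 peak lay on them. They were chosen by the presence or absence of a peak in each of 5 lists. On chromosomes 1 to 19, all peaks of the 4 histone lists that overlapped or touched were merged, which gave 89204 regions. A region was kept when it held an H3K4me3 peak of each genotype, a control H3K27ac peak, no Olig2cKO H3K27ac peak and no overlap with an Olig2 peak. This left 832 regions. Of all 36777 regions with H3K4me3 in both genotypes, 6400 without Olig2 had H3K27ac in neither genotype, 5938 in both, and 1876 in Olig2cKO tumours alone.

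H3K4me3, trimethylation of lysine 4 of histone H3, is laid down by SET1 and MLL complexes and is found mainly around the start sites of genes, in particular where the DNA is rich in CpG. H3K27ac, acetylation of lysine 27 of the same histone, is written by p300 and CBP and removed by histone deacetylases, and it sets active promoters and enhancers apart from those that carry methylation alone. A promoter with H3K4me3 and without H3K27ac is commonly read as open or poised with little activity. Olig2 is a basic helix-loop-helix transcription factor of the oligodendrocyte lineage that is also present in many gliomas.

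Both genotypes were mice of a mixed C57Bl/6;129Sv;CD-1 background with floxed P53 alleles, in which PDGFB induced brain tumours. The Olig2cKO animals carried floxed Olig2 alleles as well, and floxed P53 is common to both groups. Tumours were taken 25 days after the virus was injected. The sources used here do not say how Cre reached the cells or how many tumours went into a library. Each histone mark had 1 library per genotype, and Olig2 had 1 library, from control tumours. Whether Olig2 was lost in Olig2cKO tumours could thus not be checked with its own antibody. A comparison of genotypes sets a single library against another, with no replicate, and no p-value is given. Tumours were whole tissue: fewer cells with a mark and less of the mark per cell cannot be told apart.

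Each list gives a start, an end and a score per peak, and the score is the authors' own. Scores began at 50 to 50.02 in every list and are not scaled between libraries, so a score is set only beside other scores of its own list, as a percentile of all its peaks (the strongest peak is at 100). The lists held 56600 and 69365 H3K27ac peaks and 44676 and 48885 H3K4me3 peaks in control and Olig2cKO tumours, and 39201 Olig2 peaks. Read numbers behind them are unknown. Positions are on mm9 and count from 1. Genes were not assigned, since gene positions on that build were not used here.

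The acetylation that was listed in control tumours alone was weak. Over the 832 regions the control H3K27ac score had a median of 88.7 and ran from 50.2 to 631.5, which put the median region at the 23.8th percentile of the control list. In regions acetylated in both genotypes the median stood at the 51.9th percentile. Regions acetylated in Olig2cKO tumours alone were likewise weak in the Olig2cKO list, with a median at its 29.0th percentile. A total of 431 of the 832 regions (51.8%, 95% interval 48.3 to 55.2) lay in the lower 25% of the control list, 116 (13.9%) in its upper 50% and 8 (0.962%) in its upper 25%. The H3K27ac score was part of what chose the regions, so these values describe them and test nothing.

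The regions were a minority of comparable sites. Among 6770 regions without Olig2 that had H3K4me3 in both genotypes and H3K27ac in control tumours, 832 (12.3%, 11.5 to 13.1) had no Olig2cKO H3K27ac. With Olig2 regions included the share was 7.12% of 25006 regions, and on Olig2 alone it was 949 of 18236 (5.20%, 4.89 to 5.54). The 949 control-only regions on Olig2 were wider than the 832 without it (median 1915 against 1474 bp) and stronger in control H3K27ac (median at the 31.9th percentile). Over all 25006 regions the median control H3K27ac score was at the 69.0th percentile. In regions without Olig2 that were acetylated in both genotypes it was at the 51.9th. The shares were not matched for width or score. Among regions without Olig2, the opposite case was listed more often. Of 7814 regions without Olig2 that had H3K4me3 in both genotypes and Olig2cKO H3K27ac, 1876 (24.0%, 23.1 to 25.0) had no control H3K27ac. The lists are of unequal length, and with lists cut to equal length the numbers were 1257 in control tumours alone and 1243 in Olig2cKO tumours alone. What part list length has in the order was not tested.

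The share without Olig2cKO H3K27ac differed widely between classes of control H3K27ac score and much less between classes of control H3K4me3 score. It was 33.7% (194 of 575 regions) in the lowest 10% of the control H3K27ac list and was lower in each following class down to 1.22% (9 of 738) between the 70th and 80th percentile. Between the 80th and 90th percentile it was 1.57% (8 of 509), and above the 90th it was 0 of 270, with an exact upper limit of 1.36%. Against the control H3K4me3 score the share stayed between 9.45% and 15.6% up to the 90th percentile, and was 4.52% (26 of 575, 2.97 to 6.56) above it. The choice of regions used the H3K27ac lists, so the fall with the H3K27ac score describes the regions and tests nothing.

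**Figure D1:**
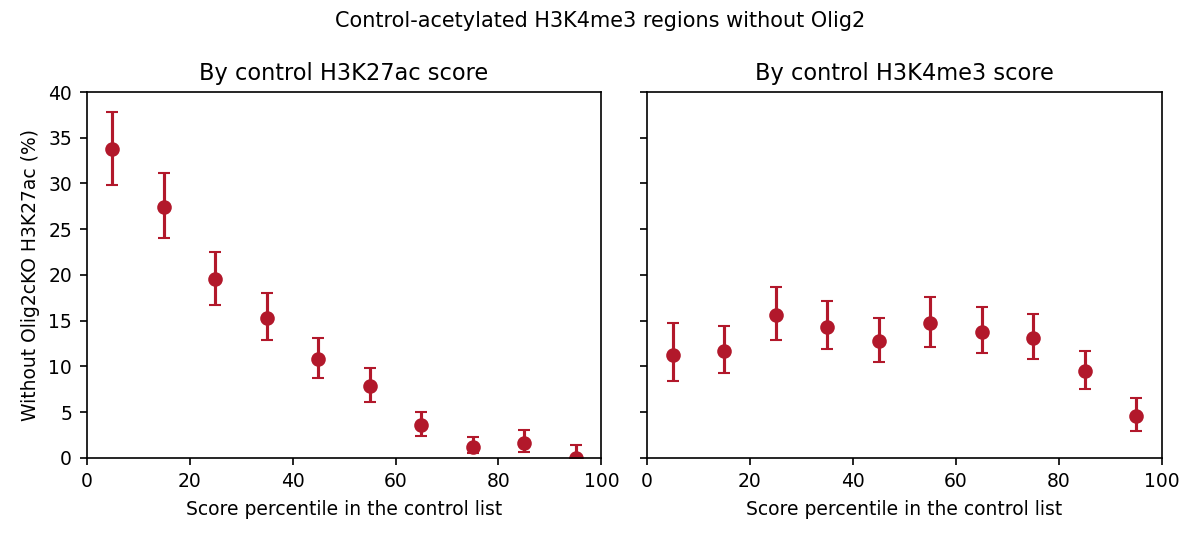
Share of control-acetylated H3K4me3 regions without Olig2 that had no Olig2cKO H3K27ac peak (y axis, %), by score percentile in the control H3K27ac list (left) or the control H3K4me3 list (right), in steps of 10 percentiles. Points are shares and bars exact 95% binomial intervals. The share goes from 33.7% in the lowest H3K27ac class to 0 in the highest and holds between 9.45% and 15.6% with H3K4me3 until the last step.

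H3K4me3 at the regions was near the middle of each list. The control score had a median of 334.8 (49.2nd percentile of its list) and the Olig2cKO score a median of 339.7 (50.9th percentile of its own). Over all 36777 regions with H3K4me3 in both genotypes the medians were higher, at the 54.8th and 60.6th percentiles. Regions acetylated in both genotypes lay at the 53.3rd and 60.9th percentiles of the same lists, and those acetylated in neither at the 35.0th and 46.4th. In the control list the 832 regions were thus close to the regions acetylated in both genotypes. In the Olig2cKO list they stood nearer to the regions acetylated in neither. A group of 117 regions (14.1%) had H3K4me3 in the upper 25% of both lists, against 24.5% of those acetylated in both, and 100 had it in the lower 25% of both, against 9.11% of those acetylated in both.

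Within the 832 regions the strength of acetylation showed almost no rank relation to that of H3K4me3. Spearman's rho between the control H3K27ac and control H3K4me3 scores was -0.01 (Pearson's r 0.02), and with the Olig2cKO H3K4me3 score it was -0.10. The H3K4me3 scores of both genotypes followed each other with a rho of 0.86. These are descriptions over regions that share libraries. The choice of regions left mostly low control H3K27ac scores, and no rho was taken in other regions. The values therefore do not show how the marks relate over the full range of scores.

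The 10 regions with the highest control H3K27ac score had acetylation over H3K4me3 peaks that were listed in both genotypes, as the choice of regions requires. The control H3K27ac was 1494 to 6545 bp wide, beside a median of 1475 bp for peaks of the control list. The first, chr13:102480604-102484663, had control H3K27ac over 4060 bp (score 631.5), H3K4me3 of 2505 bp in control tumours (score 554.2) and of 2711 bp in Olig2cKO tumours (score 533.5). The nearest Olig2cKO H3K27ac peak was 53751 bp away, while an Olig2 peak lay 3719 bp away. The second, chr4:57022810-57025475, had H3K27ac over 2666 bp (score 630.4), at the 86.4th percentile of the control list, on weak H3K4me3 that spanned 964 bp in control tumours and 741 bp in those of Olig2cKO mice. The next Olig2cKO H3K27ac peak lay 4020 bp from it.

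The third, chr6:31035100-31041733, was the widest of the 10 with 6634 bp. Its H3K27ac score was 577.4, and its H3K4me3 spanned 4414 bp in control tumours and 5028 bp in those of Olig2cKO mice. The fourth, chr5:105893769-105897617 (H3K27ac score 575.9), had strong H3K4me3 in both lists, at the 80.0th and the 82.5th percentile. The fifth, chr3:39755299-39756792 (552.1), stood alone: the nearest Olig2cKO H3K27ac peak was 51003 bp and the nearest Olig2 peak 41120 bp away. H3K4me3 there was just above the reporting limit in Olig2cKO tumours, with a score of 52.6.

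The other 5 were chr5:145744364-145746106 (H3K27ac score 528.4), chr18:68143277-68147121 (520.9), chr5:143807939-143813733 (510.2), chr10:76626433-76629510 (381.1) and chr4:104840820-104844949 (380.7). At 9 of the 10 regions the H3K27ac peak covered the whole control H3K4me3 peak, and at the region on chromosome 10 it covered 67.8% of it. The width of H3K4me3 (Olig2cKO minus control) differed by 122 to 1611 bp at 6 of the 10 and by -738 to -144 bp at the other 4. An Olig2 peak lay within 10 kb of 7 of the 10.

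**Figure D2:**
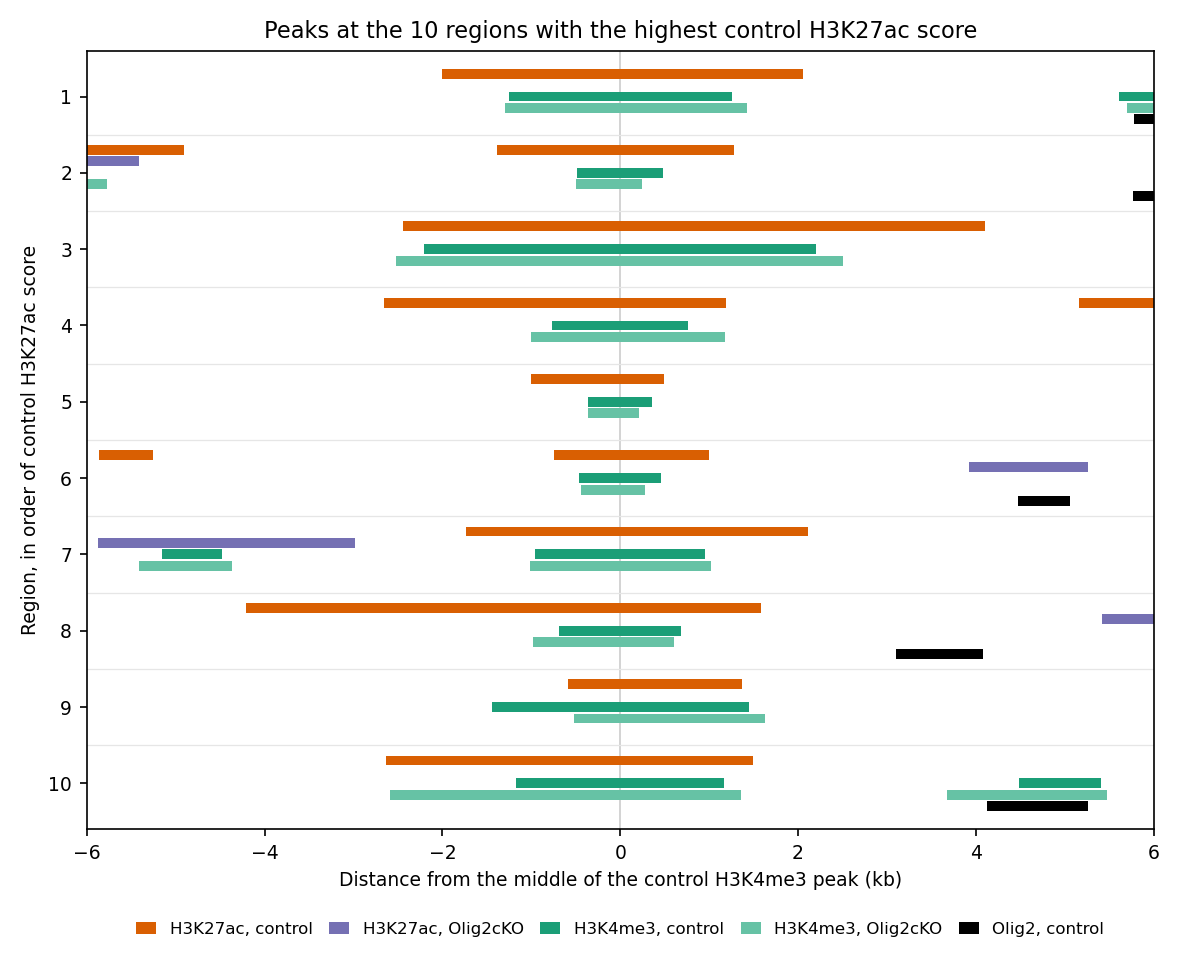
Listed peaks of the 5 libraries around the 10 regions with the highest control H3K27ac score, in order from the top, as distance in kb from the middle of the control H3K4me3 peak. Each bar is a peak drawn to scale, cut at 6 kb. The H3K27ac bar of control tumours lies over H3K4me3 bars of both genotypes in every row, and Olig2cKO H3K27ac bars are seen only away from the centre.

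The 5 regions with the highest H3K4me3 in both genotypes were chr4:45309386-45311237, chr9:57399075-57401147, chr16:59471613-59473153, chr13:67521349-67523308 and chr1:69836742-69838045. Their H3K4me3 lay at or above the 94.4th percentile of both lists. Their control H3K27ac scores were 57.6, 131.9, 121.4, 129.8 and 60.1 in this order, all in the lower 50% of the list. The percentiles were 6.27, 39.1, 35.9, 38.5 and 8.10, so that 3 of the 5 stood above the median of the 832 regions and 2 below it. The H3K27ac peak covered 39.0% to 75.7% of the control H3K4me3 peak.

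At the region on chromosome 4 the scores of H3K4me3 were 2756 in control and 2679 in Olig2cKO tumours, beside an H3K27ac score near the reporting limit. At the region on chromosome 9 an Olig2cKO H3K27ac peak lay 597 bp outside the region, whereas the other 4 had none within 20 kb. The widths of H3K4me3 differed by -23 to 254 bp (Olig2cKO minus control) at these 5 sites.

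The choice of regions requires acetylation and H3K4me3 to overlap or touch within a merged region, and 11 of the 832 had no overlap with a control H3K4me3 peak itself. The control H3K27ac peak covered the middle of the control H3K4me3 peak at 712 of the 832 regions (85.6%, 83.0 to 87.9). This share was 90.3% (89.5 to 91.0) in regions acetylated in both genotypes and 84.7% (82.3 to 87.0) in the control-only regions on Olig2. At the 832 regions the peak lay wholly inside the H3K4me3 span of both genotypes at 392 (47.1%, 43.7 to 50.6), reached past it on a single side at 257 (30.9%) and on both sides at 183 (22.0%). Among regions acetylated in both genotypes 40.1% (38.9 to 41.4) lay inside and 28.4% reached past both sides. The median H3K27ac width was 981 bp at the 832 regions, and 821 of them held a single control H3K27ac peak.

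Beyond asking for a peak in each genotype, the choice of regions did not use the width of H3K4me3. H3K4me3 was wider in Olig2cKO than in control tumours at 552 of the 832 regions (66.3%, 63.0 to 69.6), narrower at 278 and equal at 2. Over all 36777 regions with H3K4me3 in both genotypes it was wider in 77.6%. The share was 79.9% (78.9 to 80.9) where H3K27ac was listed in both genotypes, 81.1% (80.1 to 82.0) where it was listed in neither, and 90.5% (89.0 to 91.8) where it was listed in Olig2cKO tumours alone. It was 71.2% (68.2 to 74.1) in the 949 regions on Olig2 with H3K27ac listed in control tumours alone, and that interval overlaps the one of the 832 regions. The extent of a region decides which peaks touch it, so width is not wholly separate from the choice of regions, and the part of this in the share was not tested. Without regions that had Olig2cKO H3K27ac or Olig2 within 1 kb the share was 65.5% (61.6 to 69.2).

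Over the 832 regions H3K4me3 had a median width of 1074.5 bp in control tumours and of 1190 bp in Olig2cKO tumours, and the median difference per region was 73.5 bp. It was 186 bp in regions acetylated in both genotypes, 167 bp in those acetylated in neither and 293 bp in those acetylated in Olig2cKO tumours alone. Wider H3K4me3 in Olig2cKO tumours was therefore the more frequent direction in all 5 classes. It was less frequent in the 832 regions than in the 3 other classes without Olig2, whose intervals lay above theirs. The intervals cover counting error only, neighbouring regions are not independent, and the part of read depth in these widths was not tested.

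**Figure D3:**
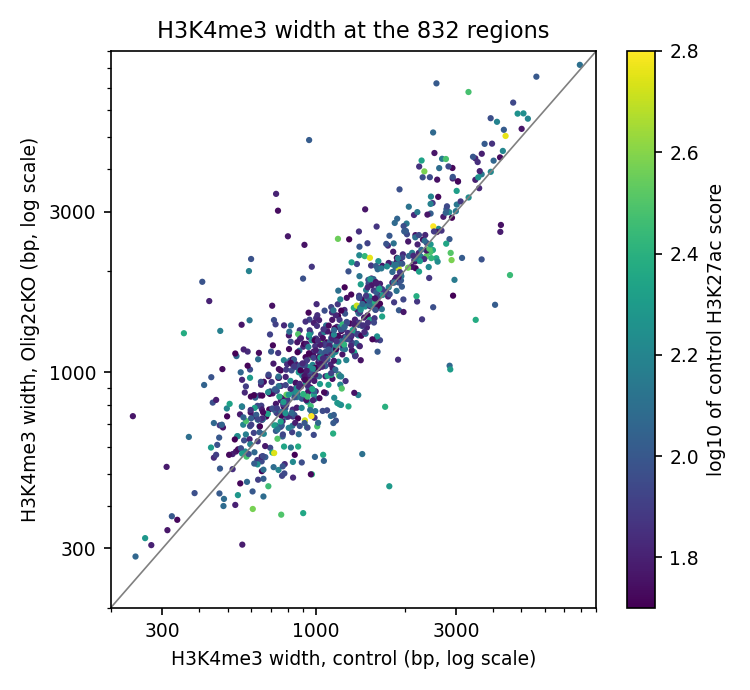
H3K4me3 width in control (x axis) and Olig2cKO tumours (y axis), in bp on log scales, for each of the 832 regions. Colour gives the log10 of the control H3K27ac score and the line marks equal width. Of the points, 552 lie above the line and 278 below it.

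The share was also compared at like strength of H3K4me3. In 5 classes of the control H3K4me3 score, from weak to strong, H3K4me3 was wider in Olig2cKO tumours at 70.6%, 64.6%, 60.4%, 73.2% and 63.0% of the 832 regions. The shares in regions acetylated in both genotypes were 86.5%, 76.7%, 78.6%, 80.1% and 79.1%. The intervals of both groups overlapped in the fourth class alone, where they were 66.6 to 79.1 and 77.9 to 82.3. Regions acetylated in neither genotype had shares of 87.0%, 79.7%, 79.0%, 77.4% and 75.6%, and their intervals overlapped those of the 832 regions in the fourth and the fifth class. Control-only regions on Olig2 had shares of 77.8%, 67.9%, 64.3%, 70.4% and 79.9%, of which the fourth was below that of the 832 regions.

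Within the 832 regions the share was lower where control acetylation was stronger. H3K4me3 was wider in Olig2cKO tumours at 311 of 431 regions (72.2%, 67.7 to 76.3) in the lower 25% of the control H3K27ac list, at 186 of 285 (65.3%, 59.4 to 70.8) between the 25th and 50th percentile, and at 50 of 108 (46.3%, 36.7 to 56.2) between the 50th and 75th. In this last class the median difference was -34 bp, that is, narrower in Olig2cKO tumours. Above the 75th percentile 8 regions were left, of which 5 were wider, too few for a direction. The choice of regions used the H3K27ac lists, so the shares by H3K27ac score describe the regions and test nothing.

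For regions acetylated in both genotypes the shares over the same classes were 86.6%, 84.6%, 78.0% and 69.3%. A lower share at a higher H3K27ac score was thus seen in both groups. The intervals of the groups did not overlap in the first 3 classes and did in the last. At the control-only regions on Olig2, the 4 shares were 73.2%, 72.0%, 63.5% and 78.7%.

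**Figure D4:**
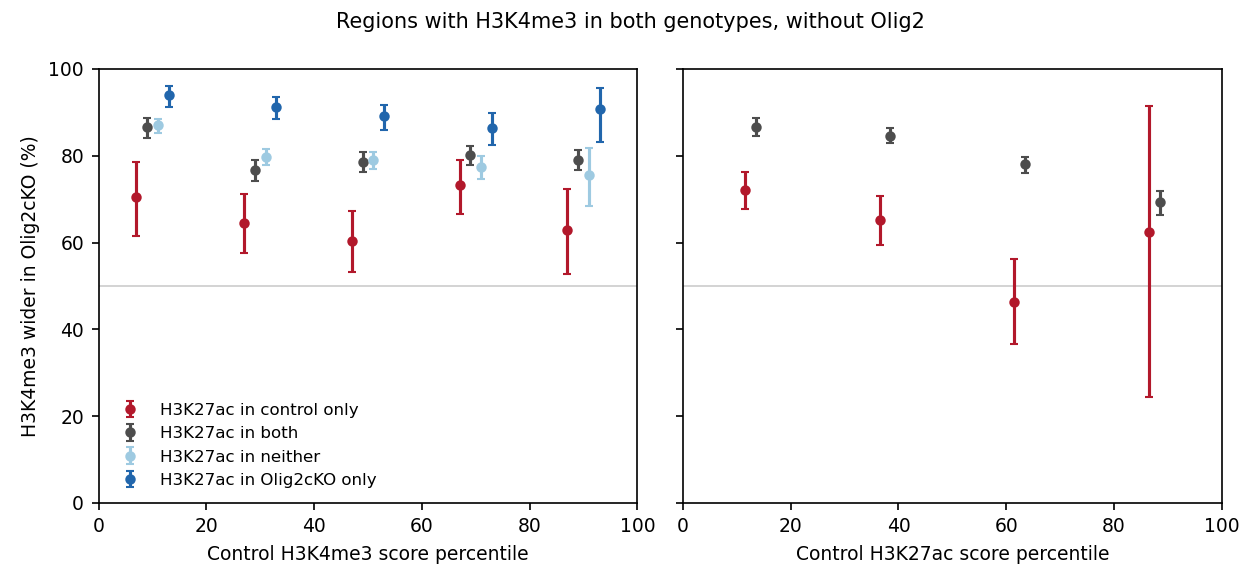
Share of regions with wider H3K4me3 in Olig2cKO than in control tumours (y axis, %) by control H3K4me3 score percentile in 5 classes (left) and by control H3K27ac score percentile in 4 classes (right). Points are shares and bars exact 95% binomial intervals, with points of a class set side by side. Of the classes plotted, regions with H3K27ac in control tumours alone (red) lie lowest at each step, with 46.3% between the 50th and 75th H3K27ac percentile.

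The largest widening in Olig2cKO tumours, at chr14:71022386-71029733, was from 2568 bp to 7202 bp, under a control H3K27ac peak of 5911 bp. It was followed by chr16:9990664-9995552 (947 to 4889 bp), chr11:58012001-58018789 (3301 to 6789 bp), chr2:38210154-38213538 (731 to 3385 bp) and chr3:144377556-144382741 (2502 to 5149 bp). At the second and the fourth of these the control H3K27ac peak did not overlap the control H3K4me3 peak. It lay within the Olig2cKO H3K4me3, which spanned the whole region.

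The largest narrowing, at chr15:7760909-7765478, was from 4570 bp to 1943 bp. The next were chr14:103911694-103915758 (4065 to 1586 bp), chr17:83615349-83619154 (3493 to 1431 bp), chr9:14436056-14439280 (2862 to 1020 bp) and chr6:51156788-51159734 (2847 to 1046 bp). Control H3K27ac at these 5 lay between the 30.4th and the 65.3rd percentile of its list, and covered 25.1% to 60.8% of the control H3K4me3 peak. Over all 832 regions the middle 50% of differences ran from -65 to 258 bp.

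Other Olig2cKO H3K27ac peaks often lay close by. An Olig2cKO H3K27ac peak lay within 1 kb of 170 of the 832 regions (20.4%, 17.7 to 23.3), within 5 kb of 364 (43.8%) and within 10 kb of 509 (61.2%, 57.8 to 64.5). The median distance was 6479.5 bp. The distance to another control H3K27ac peak was much the same, with a median of 7206 bp and 59.1% (55.7 to 62.5) within 10 kb. That last share was 58.5% for regions acetylated in both genotypes and 55.1% over all 36777 regions with H3K4me3 in both. Nearby control acetylation was thus not particular to the 832 regions. Regions acetylated in neither genotype lay farther from Olig2cKO H3K27ac, with a median of 10578 bp and 48.5% (47.2 to 49.7) within 10 kb. Control-only regions on Olig2 lay closer to it, with a median of 5158 bp and 69.4% (66.4 to 72.4) within 10 kb.

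Neighbouring acetylation came mostly in both genotypes together. Within 10 kb, 427 of the 832 regions (51.3%) had further H3K27ac peaks of both genotypes and 258 (31.0%, 27.9 to 34.3) had none of either. Only control peaks were found beside 65 (7.81%), and only Olig2cKO peaks beside 82 (9.86%). The 949 control-only regions on Olig2 had a like order. Their shares were 60.5% with peaks of both genotypes, 22.8% with none, 7.80% with control peaks alone and 8.96% with Olig2cKO peaks alone.

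**Figure D5:**
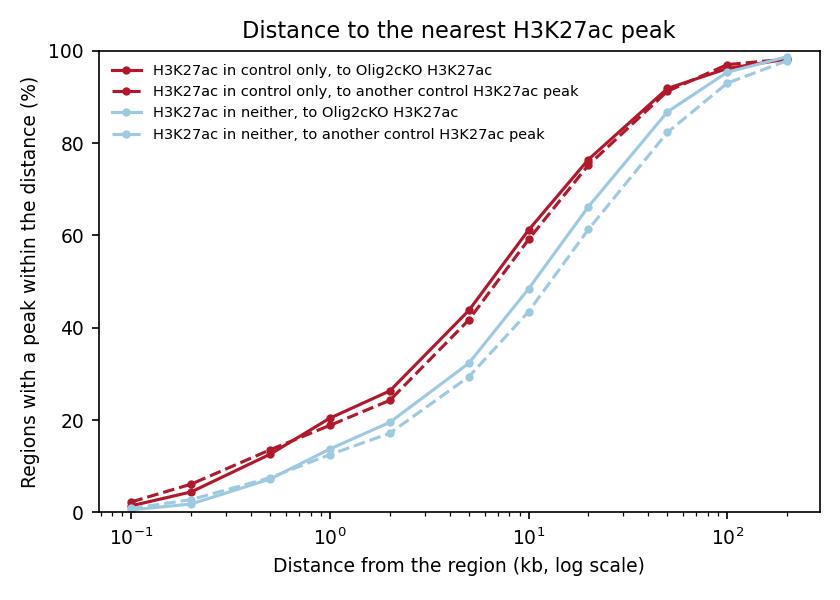
Share of regions (y axis, %) with an H3K27ac peak within a given distance (x axis, kb, log scale). Solid lines give Olig2cKO H3K27ac and dashed lines control H3K27ac outside the region, for the 832 regions (red) and the regions acetylated in neither genotype (blue). At 10 kb the red lines stand at 61.2% and 59.1% and the blue ones at 48.5% and 43.5%.

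The nearest cases came within a few bases of not being chosen. The 5 regions closest to an Olig2cKO H3K27ac peak were separated from it by 6 to 48 bp. They were chr1:39499786-39501568, chr10:106394253-106395799, chr6:121406190-121408709, chr5:136218720-136220147 and chr13:94941279-94947548. On the other side of the rule, 191 regions acetylated in both genotypes had an Olig2cKO H3K27ac score under 60, with a lowest value of 50.02. Among the 832 regions 159 (19.1%) had a control H3K27ac score under 60, with a lowest value of 50.17.

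The 5 regions farthest from Olig2cKO H3K27ac were chr6:132290359-132290953 (763499 bp), chr2:176990526-176991547 (582712 bp), chr14:8147606-8148196 (457811 bp), chr10:102324995-102325844 (349187 bp) and chr1:48938251-48938598 (346414 bp). They were short, 348 to 1022 bp, with control H3K27ac scores of 54.0 to 162.8. The region on chromosome 2 was the strongest of them in every mark, with H3K4me3 scores of 664.2 in control and 849.7 in Olig2cKO tumours.

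Olig2 peaks lay near many of the regions without touching them. The median distance was 12643 bp, and 345 regions (41.5%, 38.1 to 44.9) had an Olig2 peak within 10 kb. The share was 41.1% (39.9 to 42.4) for regions acetylated in both genotypes, 36.3% (35.1 to 37.5) for those acetylated in neither and 36.2% (34.0 to 38.4) for those acetylated in Olig2cKO tumours alone. Regions with control-only and with shared acetylation thus had like shares.

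The 5 regions closest to Olig2 were 18 to 50 bp from a peak: chr11:106779407-106781517, chr7:26566819-26568449, chr10:116385379-116387212, chr16:5202464-5203657 and chr16:26103229-26105647. At the last of these, control H3K4me3 was at the 90.8th percentile of its list (score 1971) and spanned 2196 bp, while Olig2cKO H3K4me3 was at the 59.4th percentile of its own (score 472.3) and spanned 1682 bp. The nearest Olig2cKO H3K27ac peak there was 6511 bp away.

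The regions were spread over all 19 chromosomes. The control-only share of acetylated H3K4me3 regions without Olig2 ran from 8.99% on chromosome 16 (24 of 267, 5.84 to 13.1) to 14.5% on chromosome 5 (63 of 435, 11.3 to 18.1), and these intervals overlap. The median gap between neighbouring regions was 1442432 bp, and 12 of 813 neighbouring pairs were within 10 kb. The regions occupied 651 windows of 1 Mb, 507 of them with a single region.

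A pair of windows held 5 regions each. The windows named here were picked for holding most regions, so a high local share follows from the choice. Over all windows together the share was 12.3% (832 of 6770). In chr2:177000001-178000000, 5 of 7 control-acetylated H3K4me3 regions without Olig2 lacked Olig2cKO H3K27ac, and 0 showed the reverse. These 5, between 177249416 and 177813192, were alike: 1039 to 1431 bp wide, with control H3K4me3 scores of 1005 to 1448, Olig2cKO H3K4me3 scores of 869.5 to 1225 and weak control H3K27ac with scores of 57.8 to 157.2. All 5 lay at least 50158 bp from any Olig2cKO H3K27ac peak and at least 53608 bp from any Olig2 peak. The region on chromosome 2 named above for its distance lies just before this window.

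In chr8:49000001-50000000, 5 of 11 such regions lacked Olig2cKO H3K27ac and 1 showed the reverse. Their control H3K27ac scores were 71.5 to 214.7, and the nearest Olig2cKO H3K27ac peaks were 10331 to 36876 bp away. The members at chr8:49926932-49928526 and chr8:49928557-49930442 lay side by side. The third window, chr3:108000001-109000000, held 4 of 9, and 3 of these 4 had an Olig2cKO H3K27ac peak within 1 kb.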

How the data were processed

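Chromatin immunoprecipitation followed by sequencing was done on 5 libraries, 1 per group. CASAVA, Bowtie2 and MACS on the mouse build mm9 are named per the submitters' processing notes. Versions, settings and any input library are not given in the sources used here. The deposited lists hold a score per peak that the authors' peak caller assigned within 1 library. On 20 chromosomes, 0 had a peak past its mm9 end and 9 had a peak past its mm10 end (GenomeInfoDb 1.38.1). Since the gene tables at hand are on another build, no gene and no sequence was joined to a region.

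Peaks were merged and compared with pandas 2.3.3 and numpy 2.4.6 under Python 3.11.15. Merging, overlap and distance were tested on simulated lists, and bedtools 2.31.1 gave the same 832 regions. An overlap is at least 1 bp. Where a region held several peaks of a list, the score is the highest and the width the sum. Shares carry exact (Clopper-Pearson) 95% intervals from scipy 1.17.1. Figures used matplotlib 3.10.9.

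Regions named are the 10 with the highest control H3K27ac score, 5 for each other list described, and the 3 windows with most regions, ties in chromosome order. The regions, lists and rules were chosen with earlier results of these data known. The planned motif search and gene lists were not run, for want of an mm9 genome and annotation. A further part of the genotype that both groups share is not reported here.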

Additional observations from a re-analysis of the deposited data

How the results depend on the processing

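With 1 library per group, no replicate could be left out, and no paired analysis was possible because groups share no replicate. The number of regions, 832, became 302 with the upper 50% of each list, 1257 with lists of equal length and 348 with a control H3K27ac score of at least 100. It was 634 to 877 under the other 4 alternatives, 661 with peaks up to 1 kb apart merged among them. The number acetylated in Olig2cKO tumours alone, 1876, became 619 and 1243 in the first 2 settings, which were added for it after the data were seen. The share without Olig2cKO H3K27ac, 12.3%, became 17.0% with the upper 50%, 19.2% with equal lengths, 10.8% with peaks up to 1 kb apart merged, 9.36% without regions that had Olig2cKO H3K27ac or Olig2 within 1 kb, and 7.03% at a score of at least 100. The share with wider H3K4me3 in Olig2cKO tumours, 66.3%, became 70.5% with the upper 50%, 71.7% with equal lengths and 57.8% (52.4 to 63.0) at a score of at least 100. Under 6 other settings it stayed within its interval and was 64.9% at the lowest, among them regions of at most 4 kb and regions with 1 H3K4me3 peak per genotype, both added after the data were seen. Fewer peaks enter under the upper 50%, equal lengths and the score minimum. The read depth of the lists is unknown, and what part of these regions it sets was not tested.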

Other observations

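Chromosome X was outside the regions described. On it, 45 of 332 control-acetylated H3K4me3 regions without Olig2 (13.6%, 10.1 to 17.7) lacked Olig2cKO H3K27ac, a share inside the range of the numbered chromosomes. In the opposite direction, 55 of 342 (16.1%, 12.4 to 20.4) lacked control H3K27ac, below the 20.2% to 28.5% of the 19 numbered chromosomes. The highest of the 19 intervals and that of chromosome X do not overlap, while the lowest does.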
